A study of Mus musculus with 14 samples.

Results

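The Hox genes of the mouse are described here through the chromatin marks and p53 binding found over their clusters in embryonic stem cells. The group holds 38 genes, chosen by name as members of the 4 Hox clusters, out of 21887 protein-coding genes in the annotation used. All 38 were found in it, 10 in Hoxa, 10 in Hoxb, 9 in Hoxc and 9 in Hoxd. Regions were counted within each cluster, from its first to its last member, and in 20 kb on both sides, which came to 645.047 kb in all.

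Hox genes encode homeodomain transcription factors that give cells of the embryo their identity along the head-to-tail axis. The genes lie in a row in each cluster, low paralog numbers at one end and high numbers at the other, and the embryo switches them on in that order. In undifferentiated embryonic stem cells the clusters are known for broad H3K27me3, the repressive mark laid down by Polycomb complexes, and for little transcription. Acetylation of histone H3 at lysine 27 (H3K27ac) marks active promoters and enhancers, trimethylation of lysine 9 (H3K9me3) marks heterochromatin and silenced repeats, and p53 is a transcription factor that DNA damage stabilises. H3K27me3 was not analysed here.

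The cells were E14, a mouse embryonic stem cell line, grown without feeders on gelatin in serum and LIF with the MEK inhibitor PD0325901 and the GSK3 inhibitor CHIR99021 (2i+LIF). They received 1 µM doxorubicin, an anthracycline that traps topoisomerase II on cut DNA, or its DMSO vehicle for 6 h, then drug-free medium for 6 h, and were fixed with 1% formaldehyde for 10 min at 12 h. The groups were H3K27ac from vehicle and from doxorubicin cells, H3K9me3 from vehicle and from doxorubicin cells, input DNA from doxorubicin cells, p53 precipitated through an HA tag, and an HA precipitation from cells without the tag. The labels do not give the treatment of the cells used for the HA precipitations, nor how tagged p53 was made. Each group has 2 libraries, 14 in all, which the authors pooled into 1 list of peaks per group, so that 7 lists were available. The titles of the p53 pair are both numbered 1, and whether these are separate replicates is not given. There is therefore 1 value per group and no measure of the spread between replicates, and no test between treatments was made. Intervals in brackets are exact Poisson 95% intervals of a pileup, which cover counting error only.

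The H3K27ac lists rested on 20647895 fragments in vehicle and 17036528 in doxorubicin, and held 82177 and 112259 regions. The H3K9me3 lists rested on 15992125 and 14402634 fragments, with 60836 and 78890 regions. The longer doxorubicin lists came from fewer fragments: the lowest H3K27ac summit listed was 9 fragments in vehicle and 8 in doxorubicin, or 0.436 and 0.470 fragments per 1000000 fragments of the list (FPM). A region absent from a list lay under that floor or was not called, and this does not show that the mark was absent. As a check of the cell type, all 12 embryonic stem cell markers, Pou5f1, Nanog and Sox2 among them, had H3K27ac within 1000 bp of a gene end in both lists, with median summits of 6.32 and 5.05 FPM. Of the 8 fibroblast markers, 2 had it in vehicle and 5 in doxorubicin. Col1a2, Col3a1 and Twist1 had it in neither. The highest fibroblast value was 0.969 FPM in vehicle and 0.822 in doxorubicin. Of the neural markers 3 and 2 of 5 had H3K27ac, of the endoderm markers 2 and 2 of 4, and of the mesoderm markers 2 and 2 of 4. The part of other cell types in the results below was not tested.

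The Hox clusters carried H3K27ac in both treatments, mostly as short and low regions, with 4 to 25 regions per cluster in vehicle and 4 to 27 in doxorubicin. Vehicle cells had 56 H3K27ac regions covering 53.6 kb of the 4 clusters, and doxorubicin cells 65 regions covering 57.3 kb, or 8.30% and 8.88% of the bases. Per 100 kb this was 8.68 and 10.1 regions, where the whole lists gave 4.39 and 6.00 over the effective genome. The excess of 9 regions in doxorubicin was smaller in proportion than the difference in length between the whole lists. When both lists were cut to equal length by their q-values, the difference between doxorubicin and vehicle in the clusters was -6 regions and -3.65 kb, in place of 9 regions and 3.743 kb.

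Hoxc, the cluster without members of the most anterior paralog groups, held the most H3K27ac by number and by length. It had 25 regions in vehicle and 27 in doxorubicin, covering 29.6 and 29.2 kb, or 19.0% and 18.7% of its bases. Hoxa had 13 regions in vehicle and 22 in doxorubicin, covering 6.53 and 14.4 kb, the widest difference between treatments among the 4 clusters in the full lists. With both lists cut to equal length it had 13 and 12 regions. At a -log10 q of at least 5 it had 5 and 4, and at 1 FPM or more 3 and 1. The direction turned under these settings. With a fold enrichment of at least 4, or with regions within 1000 bp merged, Hoxa still had more regions in doxorubicin. The highest Hoxa summit was nevertheless lower in doxorubicin, at 1.94 FPM in vehicle and 1.12 in doxorubicin. Hoxb had 14 and 12 regions over 15.3 and 12.1 kb, and Hoxd had 4 in each list, over 2.18 and 1.65 kb. Hoxd, at 2.92 regions per 100 kb in both treatments, lay under the density of the whole list in vehicle and in doxorubicin, and Hoxb, at 5.61, in doxorubicin.

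**Figure D1:**
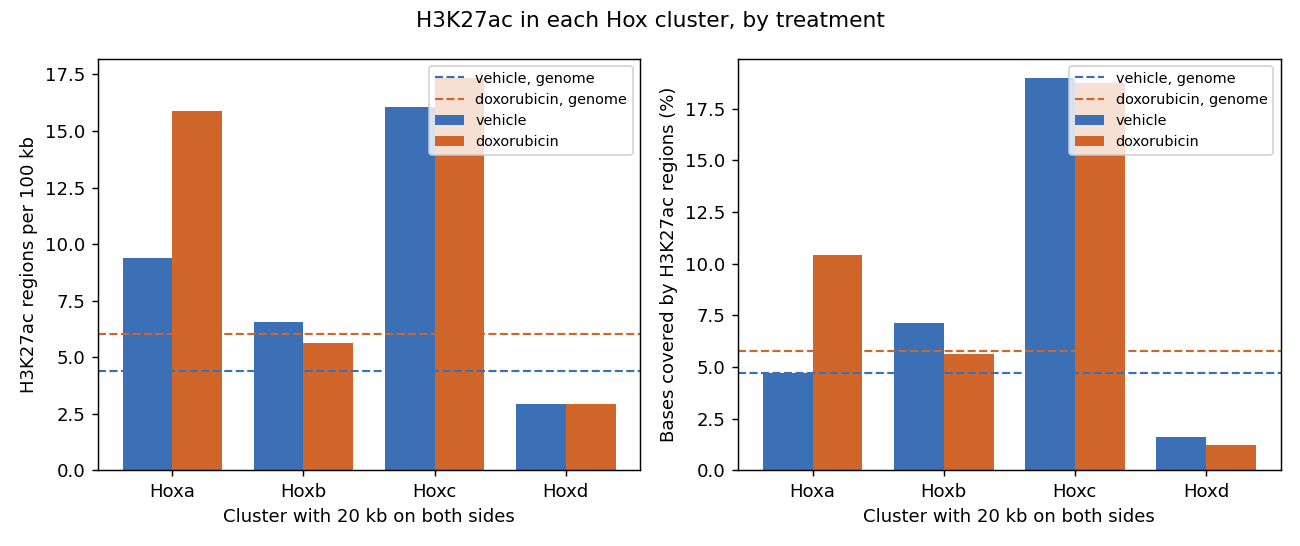
Number of H3K27ac regions per 100 kb (left) and share of bases they cover (right) in each Hox cluster with 20 kb on both sides, for vehicle and doxorubicin; dashed lines give the same over the effective genome. Hoxc stands highest on both measures, Hoxd lowest, and Hoxa has 9.39 and 15.9 regions per 100 kb in the full lists, a gap that is not kept when the lists are cut to equal length (13 and 12 regions).

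Along the clusters the mark was concentrated in a few places. In Hoxb, 11 of 14 vehicle regions and 10 of 12 doxorubicin regions lay on the Hoxb13 side, before the start of Hoxb9. This left 3 and 2 regions over the whole stretch that holds Hoxb9 to Hoxb1. The highest H3K27ac summit of all the clusters stood in the 74.7-kb interval between Hoxb13 and Hoxb9, at chr11:96249516-96254737 (mm10), over the long non-coding RNA gene Gm53. It had 131 fragments in vehicle and 110 in doxorubicin, or 6.34 (5.30 to 7.53) and 6.46 (5.31 to 7.78) FPM, so the depth-scaled values were nearly equal and their intervals overlapped. The smaller region just before it had 1.45 (0.980 to 2.07) FPM in vehicle and 0.763 (0.406 to 1.30) in doxorubicin. Beside Hoxb13, a prostate and tail-bud Hox gene, the region at chr11:96200122-96200802 had 26 fragments in vehicle and 11 in doxorubicin, a depth-scaled ratio of 0.513, the lowest among the loci listed in both treatments.

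In Hoxc the broadest domain lay in the 8.01-kb interval between Hoxc13 and Hoxc12, at chr15:102929751-102936112. Its summit held 77 fragments in vehicle and 81 in doxorubicin, or 3.73 (2.94 to 4.66) and 4.75 (3.78 to 5.91) FPM. A second high domain stood 3347 bp beyond Hoxc4, at chr15:103040203-103043108, with 3.34 (2.60 to 4.23) in vehicle and 2.88 (2.13 to 3.80) in doxorubicin. The region at the low-coordinate end of Hoxc13, chr15:102921141-102922737, had 22 fragments in vehicle and 39 in doxorubicin. Scaled to depth this was 1.07 (0.668 to 1.61) against 2.29 (1.63 to 3.13), a ratio of 2.15. Among the 35 H3K27ac loci listed in both treatments, it was the only one whose 2 intervals did not overlap.

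In Hoxa the highest locus, chr6:52158512-52159744, lay 2673 bp from Hoxa2 over the non-coding RNA genes Hotairm1 and Hotairm2. It had 40 fragments in vehicle and 19 in doxorubicin, or 1.94 (1.38 to 2.64) and 1.12 (0.671 to 1.74) FPM, with overlapping intervals. In Hoxd no H3K27ac summit reached 1 FPM in either treatment. The highest there were 0.872 in vehicle, at Hoxd11, and 0.998 in doxorubicin, 10308 bp from Hoxd13 in the neighbouring gene Evx2.

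**Figure D2:**
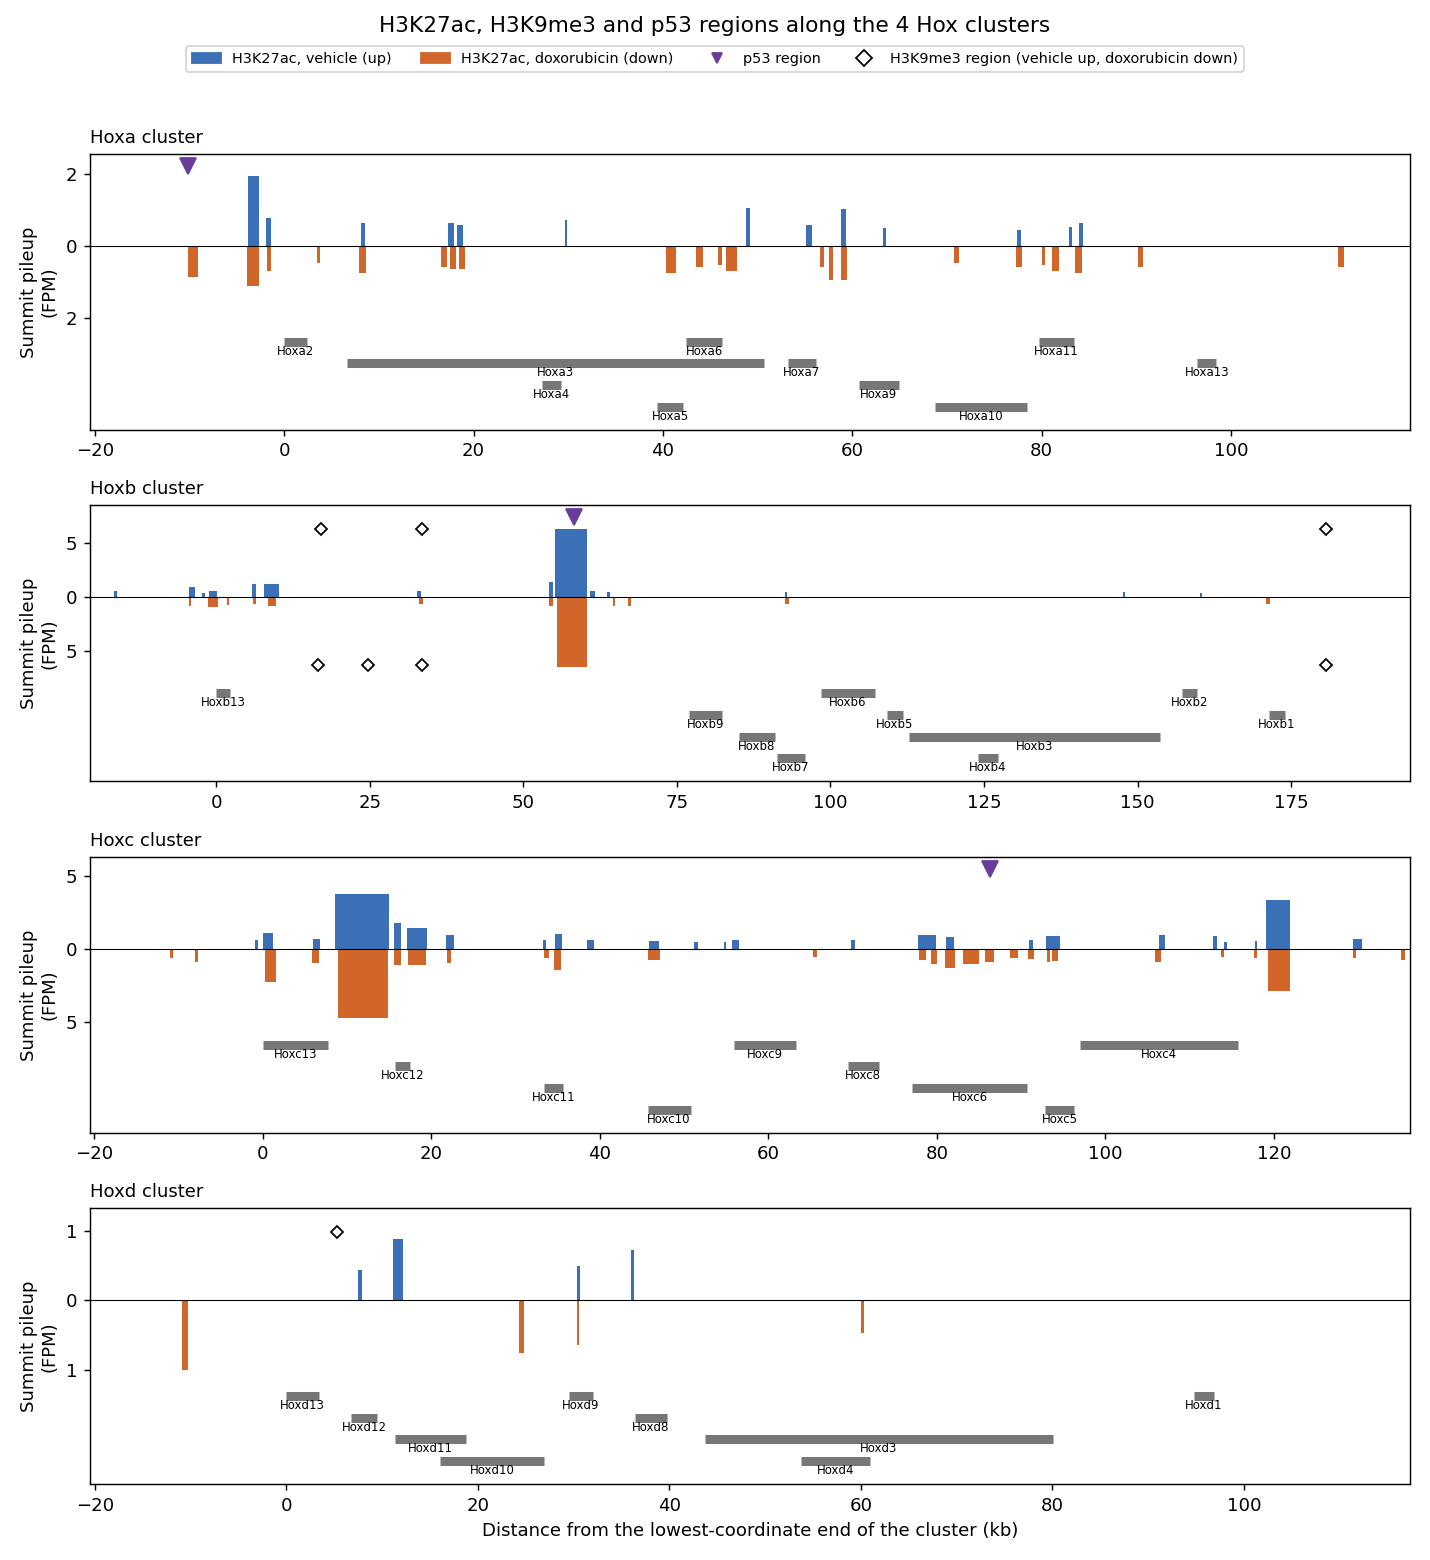
H3K27ac regions along each cluster, with kb from its lowest-coordinate end on the x axis and the summit pileup in FPM on the y axis (vehicle upward, doxorubicin downward; each bar is as wide as its region and as high as its highest summit). Grey bars are member genes, triangles the 3 p53 regions and open diamonds the H3K9me3 regions; H3K27ac is dense across Hoxc, sparse in Hoxd, and nearly missing from Hoxb9 to Hoxb1.

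Overlapping vehicle and doxorubicin regions were joined into loci to ask which were listed under both treatments. Of 84 H3K27ac loci in the clusters, 35 were in both lists, 28 in doxorubicin only and 21 in vehicle only. Over all 129545 H3K27ac loci, 41.4% were in both lists, 40.3% in doxorubicin only and 18.3% in vehicle only. The Hox shares were 41.7%, 33.3% and 25.0%, so the share in both was near the background, that in doxorubicin only was lower and that in vehicle only higher. In the full lists, Hoxa had 14 of its 27 loci in doxorubicin only and 5 in vehicle only, Hoxc 7 and 7 of 32, Hoxb 4 and 6 of 18, and Hoxd 3 and 3 of 7. With lists of equal length the doxorubicin-only loci of the 4 clusters numbered 17 in place of 28, and the Hoxa regions 13 and 12. The loci of 1 treatment were low, with 0.470 to 1.06 FPM in doxorubicin only (median 0.675) and 0.436 to 1.07 in vehicle only (median 0.581).

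At the 35 loci in both lists the ratio of doxorubicin to vehicle ran from 0.513 to 2.15 with a median of 1.03. The median over all 53618 such loci of the genome was 1.12, and 21 of the 35 (60.0%) lay below it. By cluster the median ratio was 1.07 in Hoxa (8 loci), 0.860 in Hoxb (8 loci) and 1.09 in Hoxc (18 loci). The 1 such locus of Hoxd, at Hoxd9, had a ratio of 1.33.

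**Figure D3:**
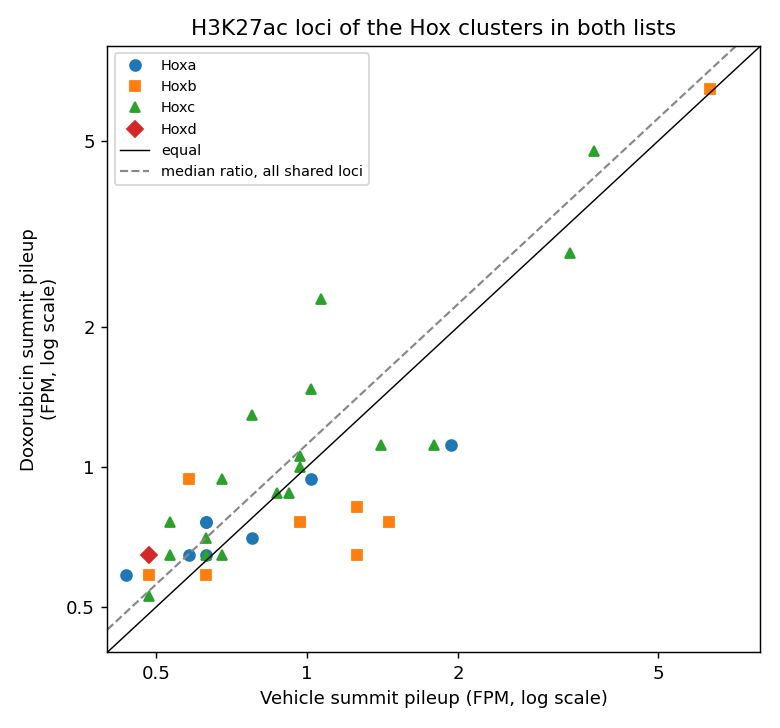
Summit pileup in vehicle (x axis) and doxorubicin (y axis), in FPM on log scales, at the 35 H3K27ac loci of the Hox clusters listed in both treatments, by cluster. The solid line marks equal values and the dashed line the genome-wide median ratio of 1.12; Hoxc13 stands farthest above and 5 of the 8 Hoxb loci lie below equality.

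A gene was counted as carrying a mark when a region lay within 1000 bp of either of its ends, since the gene table gives no strand. By this count 18 of the 38 Hox genes had H3K27ac in vehicle and 15 in doxorubicin, 47.4% and 39.5%, beside 52.3% and 56.8% of all protein-coding genes. The order turned at a fold enrichment of at least 4, with 8 genes in vehicle and 9 in doxorubicin, and at 1 FPM or more 3 genes were left in each list. Of the Hox genes, 11 had it in both lists (48.2% of all genes), 4 in doxorubicin only (8.59% of all genes), 7 in vehicle only (4.05% of all genes), and 16 in neither. Where listed, the Hox genes had low summits, with medians of 0.630 FPM in vehicle and 0.763 in doxorubicin, against 1.40 and 1.41 over all protein-coding genes with a region. Counted over the whole gene body with 1000 bp around it, 23 Hox genes had H3K27ac in vehicle and 20 in doxorubicin, beside 64.5% and 70.2% of all genes. The remaining 9, Hoxa2, Hoxa13, Hoxb4, Hoxb5, Hoxb6, Hoxb8, Hoxb9, Hoxd1 and Hoxd13, had none in either list.

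The share of genes with the mark was set out by paralog group, and differences between the groups were not tested. Of the 16 genes of paralog groups 9 to 13, which pattern the lower trunk, limbs and genital region, 11 had H3K27ac in vehicle and 8 in doxorubicin. Of all protein-coding genes, 52.3% had it in vehicle and 56.8% in doxorubicin. All 8 of the doxorubicin genes were among the vehicle genes. By this count no gene of these groups was listed in doxorubicin only, where 8.59% of all genes were. Counted over the gene body, 1 gene of these groups was, Hoxd10. Of the 11 genes of groups 5 to 8, 5 had it in each list and 3 in both. Of the 11 genes of groups 1 to 4, which pattern the hindbrain and neck, 2 had it in each list and none in both. By cluster, 8 of the 9 Hoxc genes had H3K27ac in vehicle and 6 in doxorubicin, 4 and 2 of 9 in Hoxd, 4 and 5 of 10 in Hoxa, and 2 and 2 of 10 in Hoxb.

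Hoxc12, at chr15:102936826-102938609, had the highest value of all members in doxorubicin, taken from the domain before it and given above. Hoxc13, which acts in hair and nail formation, lay beside the same domain: its window reached the vehicle region but not the doxorubicin one, so its values of 3.73 and 2.29 FPM come from different regions, and the locus inside the gene is the matched comparison. Hoxc11 had 1.02 (0.630 to 1.55) in vehicle and 1.47 (0.95 to 2.17) in doxorubicin. Hoxc10, a hindlimb and lumbar spinal cord gene, had 0.533 and 0.763, with overlapping intervals. Hoxc5 had 0.872 and 0.880, and these values were close.

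Hoxc6, a thoracic patterning gene, held more regions inside it in doxorubicin. Its ends had 0.969 (0.592 to 1.50) FPM in vehicle and 0.763 (0.406 to 1.30) in doxorubicin. The vehicle region there was met by 2 separate doxorubicin regions, the higher of them outside the window, and the matched locus had 0.969 and 1.06, with overlapping intervals. Its body and flanks held 3 regions in vehicle and 7 in doxorubicin. The 3 loci listed in doxorubicin only had 18, 15 and 11 fragments. The neighbouring Hoxc8 and Hoxc9 were listed in vehicle only, with 12 and 13 fragments. Hoxc4 had no region at its ends but held 3 in its body in vehicle and 2 in doxorubicin.

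In Hoxa, Hoxa10 had 9 fragments in vehicle and 10 in doxorubicin, or 0.436 and 0.587 FPM, and Hoxa11, a gene of limb and uterus, had 13 and 13, or 0.630 and 0.763. Hoxa7 was listed in both treatments through different regions, with 12 fragments in vehicle and 10 in doxorubicin. Hoxa5, needed for lung and airway formation, was listed in doxorubicin only with 13 fragments, or 0.763 (0.406 to 1.30) FPM. Its neighbour Hoxa6 was too, with 12 fragments, or 0.704 (0.364 to 1.23). Hoxa4 was listed in vehicle only with 15 fragments. Hoxa3 spans 44.0 kb in the annotation and overlaps Hoxa4, Hoxa5 and Hoxa6, so the 5 vehicle and 8 doxorubicin regions in its body include theirs. Hoxa9 had a single vehicle region in its body and none at its ends.

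In Hoxb, Hoxb13 had 12 fragments in vehicle and 16 in doxorubicin, or 0.581 (0.30 to 1.02) and 0.939 (0.537 to 1.53) FPM. Hoxb2 was listed in vehicle only with 9 fragments, the floor of that list. Hoxb1, an early hindbrain gene that responds to retinoic acid and acts on its own promoter, was listed in doxorubicin only with 11 fragments, or 0.646 (0.322 to 1.16) FPM. In Hoxd, Hoxd9 had 10 and 11 fragments. Hoxd8, Hoxd11 and Hoxd12 were listed in vehicle only, with 15, 18 and 9 fragments, and Hoxd4 in doxorubicin only with 8, the floor of that list. All 11 genes listed in 1 treatment had between 8 and 18 fragments, and for none did the data allow the other treatment's value to be given.

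**Figure D4:**
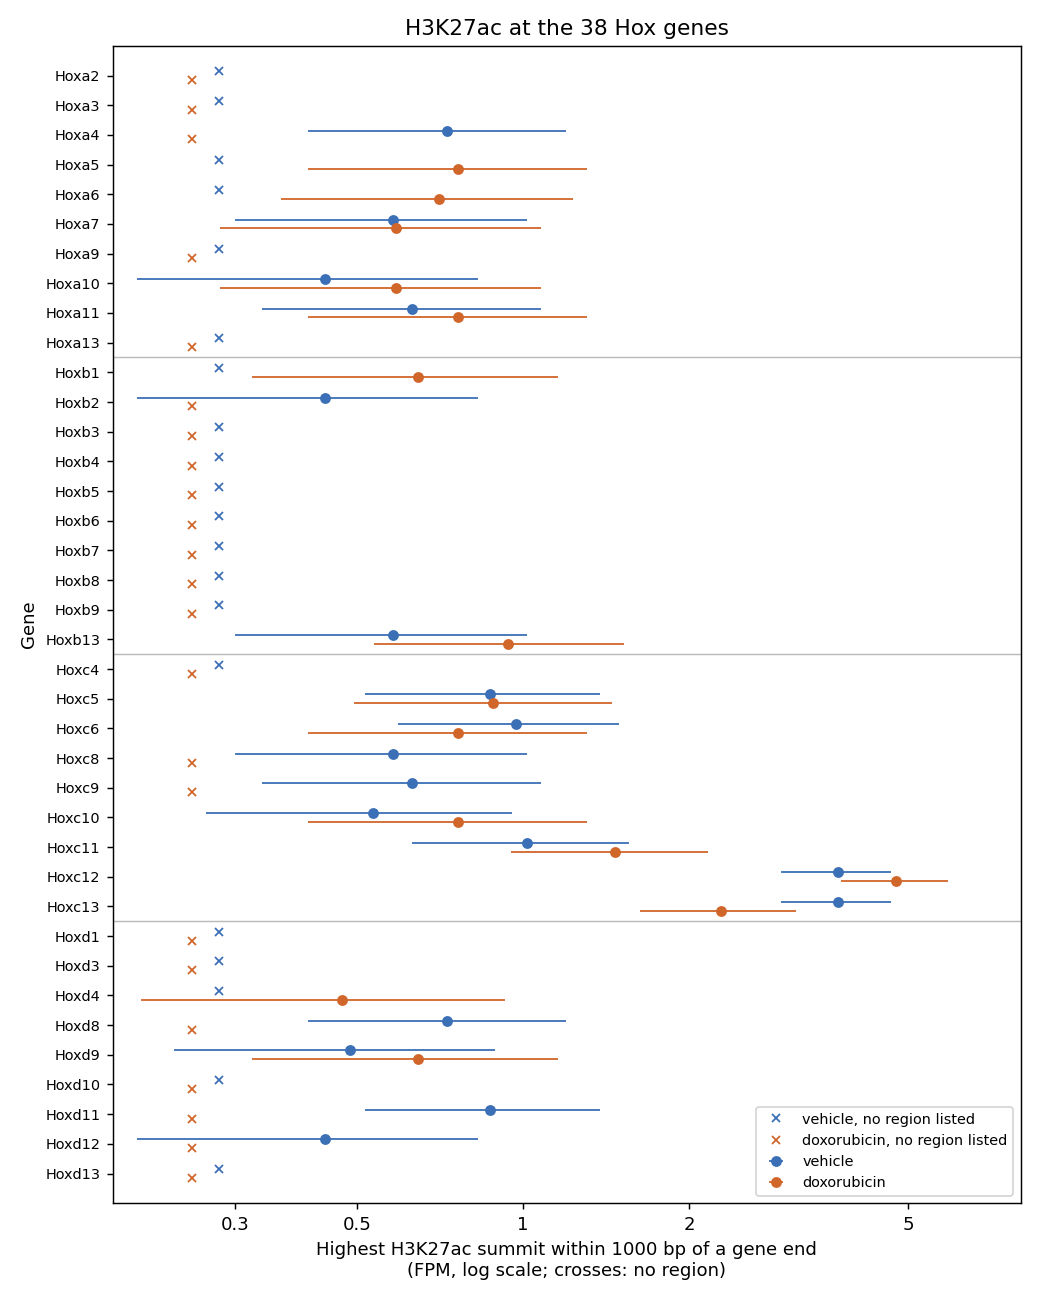
Highest H3K27ac summit within 1000 bp of a gene end at each of the 38 Hox genes, in FPM on a log scale, for vehicle and doxorubicin; bars are exact Poisson 95% intervals and crosses mark no listed region. Hoxc12 and Hoxc13 stand above all other members, where Hoxc13 takes its vehicle value from the domain beside it; 16 genes have crosses only.

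Promoter sequence was available in RefSeq (GRCm38.p6) for 22 of the 38 genes, as 24 promoters of 300 bases, from 250 before the transcription start to 50 after it. Of Hoxc, the cluster with the most H3K27ac, only Hoxc4 had a promoter entry, and of Hoxb only Hoxb1, Hoxb4 and Hoxb8. The promoters of the other genes of these clusters were not examined. Of the 24 promoters, 3 had some bases under a vehicle region and 3 under a doxorubicin region. In 4 promoters at least 150 bases lay under a region of 1 treatment only, and their sequences are shown because they tie those regions to a transcription start. They are the promoter of Hoxb1 (chr11:96365508-96365807, plus strand), with 300 bases in the doxorubicin region, and those of Hoxd11 (chr2:74679308-74679607, plus strand), with 295 in the vehicle region, Hoxd8 (chr2:74704365-74704664, plus strand), with 171 in vehicle, and Hoxc4 (chr15:103034145-103034444, plus strand), with 286 in vehicle. Capitals mark matches to TGATNNAT, a site of the kind bound by Hox proteins together with Pbx, searched on both strands.
Hoxb1: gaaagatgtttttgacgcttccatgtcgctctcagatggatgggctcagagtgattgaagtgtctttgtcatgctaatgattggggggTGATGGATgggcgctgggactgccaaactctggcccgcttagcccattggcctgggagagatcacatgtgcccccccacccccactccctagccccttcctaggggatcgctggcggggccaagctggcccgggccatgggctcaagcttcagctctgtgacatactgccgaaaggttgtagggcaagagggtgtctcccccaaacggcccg
Hoxd11: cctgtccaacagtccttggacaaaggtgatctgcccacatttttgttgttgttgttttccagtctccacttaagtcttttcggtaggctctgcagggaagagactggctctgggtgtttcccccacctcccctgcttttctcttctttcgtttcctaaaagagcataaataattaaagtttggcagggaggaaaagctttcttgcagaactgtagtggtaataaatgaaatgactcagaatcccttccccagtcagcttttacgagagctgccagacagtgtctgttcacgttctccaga
Hoxd8: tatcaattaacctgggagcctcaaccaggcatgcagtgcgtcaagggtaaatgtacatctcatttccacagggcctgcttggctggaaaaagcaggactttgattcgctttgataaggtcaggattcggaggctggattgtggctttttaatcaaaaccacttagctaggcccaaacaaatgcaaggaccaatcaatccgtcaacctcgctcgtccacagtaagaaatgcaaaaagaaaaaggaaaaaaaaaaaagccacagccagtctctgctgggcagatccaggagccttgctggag
Hoxc4: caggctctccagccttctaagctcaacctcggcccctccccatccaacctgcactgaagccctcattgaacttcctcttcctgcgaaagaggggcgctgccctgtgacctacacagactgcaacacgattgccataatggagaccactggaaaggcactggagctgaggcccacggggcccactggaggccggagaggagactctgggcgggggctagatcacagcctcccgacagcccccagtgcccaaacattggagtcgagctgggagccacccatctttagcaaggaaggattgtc
TGATNNAT was found in 1 of these, that of Hoxb1, in 4 of the 24 Hox promoters (16.7%) and in 8.85% of all 32851 promoters of the same length. The 4 promoters held 10, 4, 6 and 9 CG pairs in the order shown, fewer than the median of 14.5 over the 24 Hox promoters, where the median over all promoters was 7. For Hoxd11 the promoter shown is the first of 2 in the table, and the other had no base under H3K27ac. Hoxc4 was not counted above because its end lies more than 1000 bp from this region.

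H3K9me3 was sparse over the clusters in both treatments. There were 4 regions in vehicle, covering 3.11 kb, and 4 in doxorubicin, covering 3.53 kb. This was 0.620 per 100 kb in both, where the whole lists gave 3.25 and 4.22. In 100-kb windows that hold a protein-coding gene, the median was 1 region in vehicle and 2 in doxorubicin. Of these windows, 33.6% had none in vehicle and 27.8% none in doxorubicin. Hoxa and Hoxc had none. At the ends of genes, 1 of the 38 had H3K9me3 in vehicle (5.87% of all genes) and 0 in doxorubicin (7.48% of all genes). This was Hoxd12, 826 bp from a region of 14 fragments, or 0.875 FPM, at chr2:74673460-74674187. That made it the 1 Hox gene listed in vehicle only, where 0.8% of all genes were.

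The other H3K9me3 loci were in Hoxb, all outside the genes. The locus at chr11:96210936-96211999, 14326 bp from Hoxb13, had 13 fragments in vehicle and 35 in doxorubicin. Scaled to depth this was 0.813 (0.433 to 1.39) against 2.43 (1.69 to 3.38), a ratio of 2.99 with intervals that did not overlap, where the median ratio over all H3K9me3 loci in both lists was 1.27. The locus at chr11:96227755-96229108 had 22 fragments in both lists, a ratio of 1.11. The one 6698 bp beyond Hoxb1 had 12 and 8 fragments, a ratio of 0.740, and the fourth, at chr11:96219092-96219684, was listed in doxorubicin only with 12.

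p53 was found at 3 places in the clusters, 1 each in Hoxa, Hoxb and Hoxc, and at no end of a Hox gene. This was 0.465 regions per 100 kb, against 0.603 for the whole list of 11282. The HA precipitation from cells without the tag and the input had no region in the clusters. None of the 38 Hox genes had p53 within 1000 bp of an end, where 2.76% of all genes did, and 1 had it in its body, where 17.1% did. The known p53 targets Cdkn1a, Mdm2 and Ccng1, used as a check, all had a p53 region within 1000 bp.

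The p53 region in Hoxb, chr11:96252540-96253143, lay inside the high H3K27ac domain at Gm53, 18187 bp from Hoxb9. The authors' fold enrichment over input was 13.4 and their -log10 q 61.6, where the median fold of their list was 7.52. The p53 region in Hoxa, chr6:52152245-52152714, lay 9703 bp from Hoxa2, the nearest member, with a fold of 9.66 and a -log10 q of 47.7. It lay wholly inside an H3K27ac region listed in doxorubicin only, with 15 fragments, or 0.880 (0.493 to 1.45) FPM. The p53 region in Hoxc, chr15:103007404-103007693, lay inside Hoxc6, with a fold of 4.42 and a -log10 q of 14.3. It too overlapped an H3K27ac region listed in doxorubicin only, again with 15 fragments.

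Of the 3 p53 regions, then, 1 had H3K27ac in both lists, 2 in doxorubicin only and 0 in vehicle only, where 42.3%, 30% and 0.594% of all p53 regions did. Read from the H3K27ac side, 2 of 28 doxorubicin-only loci in the clusters held p53 (6.02% of all such loci), 1 of 35 loci in both lists (9.02%) and 0 of 21 in vehicle only (0.232%). The other 26 doxorubicin-only H3K27ac loci of the clusters, those at Hoxa5, Hoxa6 and Hoxb1 among them, held no listed p53 region.

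Genes that act with or on Hox genes were set beside them. Of all protein-coding genes, 52.3% had H3K27ac at an end in vehicle and 56.8% in doxorubicin. The TALE homeodomain proteins Pbx, Meis and Pknox bind DNA together with Hox proteins. Of 8 of their genes, 3 had H3K27ac in vehicle and 4 in doxorubicin. Meis2 and Pknox1 were in both, Pbx2 and Pbx3 in doxorubicin only (0.704 FPM each) and Pknox2 in vehicle only (0.581). Counted over the gene body, Pknox2 had 23 regions in vehicle and 34 in doxorubicin. Of 12 upstream regulators, 5 had it in vehicle and 6 in doxorubicin. Cdx1, a caudal gene that activates Hox genes, had 1.45 and 1.70 FPM, and Cdx2 was listed in doxorubicin only at 0.587. The retinoic acid receptor genes Rara and Rarg were in both lists, and Rarb had no H3K27ac at its ends in either. Of the Cyp26 genes, whose products degrade retinoic acid, Cyp26a1 and Cyp26b1 were in doxorubicin only at 0.528 and 0.763. Cyp26c1 was in vehicle only at 0.436. Counted over the gene body, Rarb and Cyp26b1 had H3K27ac in both lists, Cyp26b1 at 1.79 in vehicle and 3.64 in doxorubicin.

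Of 19 genes for Polycomb and trithorax proteins, which hold Hox genes silent or active, 18 had H3K27ac in vehicle and 16 in doxorubicin. Ring1 and Bmi1, both of Polycomb complex PRC1, were in vehicle only at 0.630 and 0.533 FPM, and both also had H3K9me3 in both treatments. Counted over the gene body, Bmi1 also had H3K27ac in doxorubicin, at 0.470. Ezh2, the main H3K27 methyltransferase, had 4.65 in vehicle and 2.64 in doxorubicin, and its partner Eed had 5.71 and 7.22.

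Of 50 other developmental homeobox genes, 13 had H3K27ac in vehicle and 23 in doxorubicin, 26.0% and 46.0%. The 50 include Evx2, which lies in the 20 kb beside Hoxd. Of the 50, 10 were in both lists, 13 in doxorubicin only (8.59% of all genes) and 3 in vehicle only (4.05% of all genes). The corresponding Hox counts were 11, 4 and 7 of 38, and the difference between the 2 gene groups was not tested. The doxorubicin-only genes included the motor neuron gene Mnx1 (1.29 FPM), the hindlimb gene Pitx1 (0.998) and Irx6 (0.880), which also had p53 at an end. They also included Dlx2, En1, Msx1 and Gbx2, at 0.528 to 0.704. Counted over the gene body, Pitx1 also had H3K27ac in vehicle, at 0.436.

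**Figure D5:**
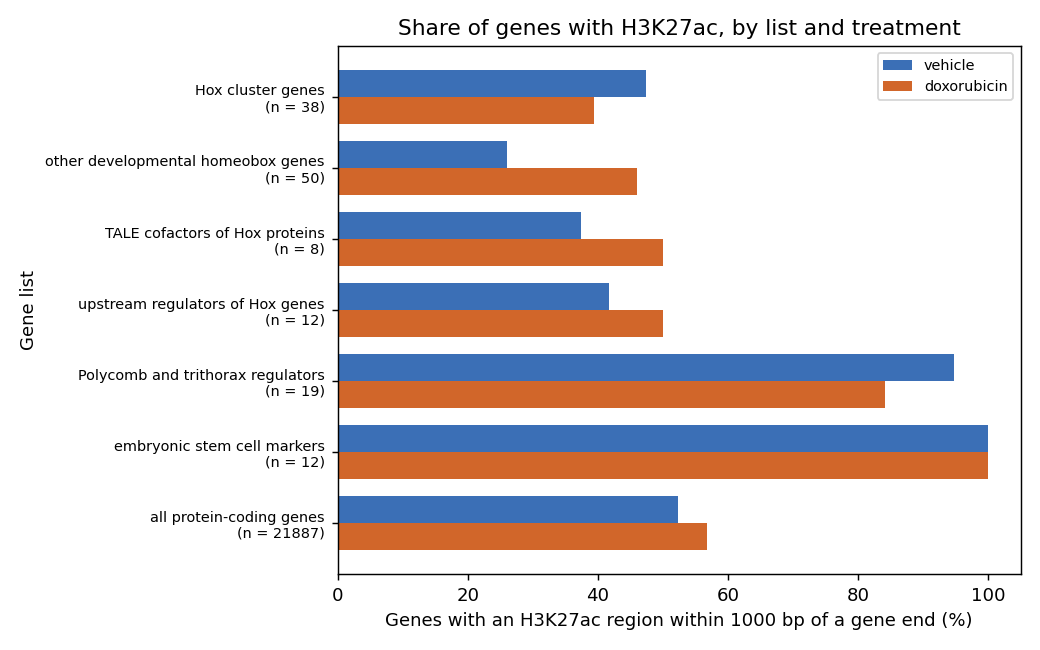
Percentage of each gene list that carried H3K27ac at a gene end (1000 bp window) in vehicle and doxorubicin, with the number of genes in each list beside its name. The Hox cluster genes stand at 47.4% and 39.5%, the other developmental homeobox genes at 26.0% and 46.0%, and all protein-coding genes at 52.3% and 56.8%.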

How the data were processed

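Chromatin immunoprecipitation sequencing had been done on 14 libraries in 7 groups. Reads were aligned with Bowtie2 2.2.6 to mm10, per the submitters' processing notes, and peaks called with MACS2 2.2.5, per the file headers, on the 2 pooled libraries of each group, at a q-value of 0.05 with 1 fragment kept per position. Histone and input lists had no control and a uniform background; the HA lists used the input. Per the file headers, the authors' lists give the summit pileup (a signal, in fragments), the fold enrichment (a ratio), and -log10 q values.

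Summits of 1 interval were joined and took the highest summit's values. Pileups were expressed per 1000000 fragments after filtering (FPM); HA pileups, already scaled to input by the authors, were not. Regions sharing 1 bp were overlapping. Python 3.11.15, pandas 2.3.3, scipy 1.17.1 and matplotlib 3.10.9 were used. On 28000 simulated regions, all 4 overlap counts matched bedtools 2.31.1. Gene positions came from RefSeq GRCm38.p6, whose table gives no strand. With 1 list per group no test was possible. Described with own values were members with a region within 1000 bp in any list and the highest summit of each cluster. Listed pathway genes with a mark in 1 treatment were described too. Evx2, Cdx1, Rara, Rarb, Rarg, Meis2, Pknox1, Ezh2 and Eed were named after their values were seen. One gene of the cofactor list is not reported here. The members and lists were chosen with earlier results of these data known.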

Additional observations from a re-analysis of the deposited data

How the results depend on the processing

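No paired analysis was possible because both libraries of a group were merged before peak calling, which also prevented dropping single replicates. Values in brackets are those of the report. The sign of the treatment difference in the clusters depended on the threshold. H3K27ac regions in doxorubicin minus vehicle (9) came to 2 at a -log10 q of at least 5, -2 at 1 FPM or more, -6 at equal list lengths and 5 with regions within 1000 bp merged. The difference in covered kb (3.743) was -1.251, -1.915, -3.650 and 6.475 under the same 4 settings and 6.405 with flanks of 50 kb. Thresholds on -log10 q (at least 5), fold (at least 4) and pileup (at least 1 FPM) left 24, 26 and 13 vehicle regions (56) and 26, 35 and 11 doxorubicin regions (65). The covered kb was 25.793 in vehicle (53.6) and 23.878 in doxorubicin (57.3) at the pileup threshold, and 34.749 in doxorubicin at the q threshold.

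Under the same 3 thresholds, Hox genes with H3K27ac numbered 8, 8 and 3 in vehicle (18) and 5, 9 and 3 in doxorubicin (15), and those in vehicle only (7) numbered 4, 3 and 0. Those in doxorubicin only (4) numbered 1 at the q threshold and 0 at the pileup threshold. A window of 2500 bp gave 23 in doxorubicin. Counting only annotated starts of the 22 genes with a promoter entry, an alternative added after seeing the data, gave 8 in vehicle, 9 in doxorubicin and 3 in vehicle only. The difference in genes between doxorubicin and vehicle (-3) was 1 at the fold threshold, 0 at the pileup threshold, -6 at equal lengths, -1 at 2500 bp and 1 at annotated starts. H3K27ac loci in doxorubicin only (28) numbered 10, 15 and 3 under the 3 thresholds and 17 at equal lengths, and those in vehicle only (21) 9, 8 and 5.

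H3K9me3 regions (4 and 4) numbered 1 and 2 at the pileup threshold, covering 1.184 kb in vehicle, and 10 in doxorubicin with flanks of 50 kb, covering 5.926 kb. Hox genes with H3K9me3 in vehicle (1), all in vehicle only, numbered 0 at the pileup threshold and at 500 bp, and 2 at 2500 bp. Flanks of 50 kb gave 5 p53 regions (3), 2 with vehicle (1) and 5 with doxorubicin H3K27ac (3); the pileup threshold left 1 with the latter. The depth limits what can be said of genes listed in 1 treatment, whose summits of 8 to 18 fragments lie near the lowest pileups listed (9 and 8).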

Other observations

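The clusters with their flanks also hold 27 long non-coding RNA genes. Of these, 13 had H3K27ac within 1000 bp of an end in vehicle and 13 in doxorubicin, 11 of them in both. This was 48.1% in each list, where 52.3% and 56.8% of all protein-coding genes had it. The share over all long non-coding RNA genes was not worked out. Hotair, which lies between Hoxc12 and Hoxc11, had 0.969 FPM in vehicle and 0.998 in doxorubicin. Gm30134 and Gm11538, beside Hoxb13, had 1.26 and 0.822. Hoxaas2 and Gm52902 were listed in doxorubicin only, at 0.763 and 0.470, and Hoxb3os and LOC115490409 in vehicle only, at 0.484 and 0.726. Counted over the gene body, LOC115490409 had H3K27ac in both lists. These genes overlap or adjoin Hox genes, and the lists do not tell which of the neighbours a region belongs to.

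Of the 6 microRNA genes in the clusters, 2 had H3K27ac within 1000 bp of an end. The share over all microRNA genes was not worked out. Mir615, inside Hoxc5, had 0.872 FPM in vehicle and 0.880 in doxorubicin, and Mir196a-2, between Hoxc10 and Hoxc9, was in vehicle only at 0.484. Mir10a, Mir10b, Mir196a-1 and Mir196b had none. The mature RefSeq sequences of the miR-10 and miR-196 5′ arms and of miR-615-3p are shown because the clusters carry sets with a shared seed (bases 2 to 8, in capitals): miR-10a and miR-10b share ACCCUGU, and miR-196a, encoded by both Mir196a genes, and miR-196b share AGGUAGU.
miR-10a-5p: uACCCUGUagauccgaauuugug
miR-10b-5p: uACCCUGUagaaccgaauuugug
miR-196a-5p: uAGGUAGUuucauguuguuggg
miR-196b-5p: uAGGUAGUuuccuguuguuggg
miR-615-3p: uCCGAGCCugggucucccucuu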
